A study of Homo sapiens with 20 samples.

Results

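Cytosolic ribosomal protein genes encode the proteins that, with ribosomal RNA, make up the small and the large subunit of the ribosome outside mitochondria. The genes were chosen by name: symbols of the RPL, RPS, RPLP and RPSA series with at least 1 protein-coding RefSeq transcript, without the ribosomal protein kinases and without a pair of Y-linked genes. The rule gave 84 of the 46425 genes in the deposited tables, 52 of the large subunit and 32 of the small subunit. They were followed through erythroid differentiation of wild-type HUDEP-2 cells, a cell line of erythroid progenitors that was immortalized from umbilical cord blood, in poly(A)-selected, stranded RNA-seq libraries. HUDEP-2 cells carry inducible viral oncogenes that doxycycline keeps on, so the results hold for 1 line and not for primary erythroblasts. Cells were collected before differentiation (day 0, the Pro-E stage) and after 1 to 8 and 12 days in a medium with erythropoietin, stem cell factor, doxycycline, transferrin, insulin, heparin and AB serum. Stem cell factor was left out from day 6 and doxycycline from day 8. Before differentiation the cells were expanded in a serum-free medium with stem cell factor, erythropoietin, dexamethasone and doxycycline. Day 0 and the later days therefore also differ in medium. Days 4 to 6 were named the EB/LB stage, day 8 the Poly stage and day 12 the Ortho or reticulocyte stage.

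There were 20 libraries, 2 from each of the 10 days. One library of each day came from tables that each cover part of the days (the first set). The other came from a table of all days (the second set). The first set joins a table of the days before day 7, a table of days 7 and 8 and a table of day 12. In the first set, day 0, day 8 and day 12 therefore came from different tables, and no fit separated these tables. Library totals ranged from 52131713 to 70358198 counts. Ribosomal RNA took 18.5% and 17.5% of the counts in the first-set libraries of days 7 and 8 and between 1.03% and 4.08% in the other 18. Globin mRNA took 0.859% and 0.819% of the counts on day 0 and 28.2% and 33.7% on day 12. Of 11 erythroid markers, all above 1 TPM in some library, 10 were called higher and 1 lower on day 12 than on day 0 in the gene tests described below. In mean TPM, GATA1 went from 213 on day 0 to 122 on day 12 and TFRC from 2215 to 358, and the other markers rose. Of the markers of other blood cells, no monocyte or granulocyte marker passed 1 TPM. Of 4 lymphocyte markers 3 were at 0 in every library and CD3D reached 2.62 TPM, with 0 on days 0, 8 and 12. Of 4 megakaryocyte markers only ITGA2B passed 1 TPM. Its mean of 39.8 TPM on day 0 had fallen below 1 TPM by day 8 (0.216) and day 12 (0.747). The 4 markers together summed to 10.7 TPM in 1 library of day 0 and to 69.0 TPM in the other. The study calls the libraries of a day biological replicates but does not say whether they came from separate differentiation cultures, and p-values measure the spread between them.

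A ribosome holds a single copy of nearly every one of these proteins, the exception being the acidic stalk proteins RPLP1 and RPLP2, which sit on RPLP0 and help to recruit elongation factors. Their mRNAs begin with a C followed by a run of C and T bases, the 5′ terminal oligopyrimidine (TOP) motif, through which their translation follows nutrient and growth signals. Erythroid precursors need many ribosomes to make globin and lose them as reticulocytes mature. Loss of 1 copy of any of several of these genes causes Diamond-Blackfan anemia, a failure of red cell production.

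The first bases of the transcripts are shown for members on which the results turn, with 15 bases before and 15 bases from the annotated start, 5′ to 3′. Capitals mark the unbroken run of C and T bases that begins at the start. The sequences are from RefSeq on GRCh38.p14, and the first start listed for a gene was used.
RPS12 (chr6:132814554-132814583, plus strand): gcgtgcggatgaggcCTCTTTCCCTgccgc
RPS19 (chr19:41860240-41860269, plus strand): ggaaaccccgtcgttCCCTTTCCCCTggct
RPS24 (chr10:78033848-78033877, plus strand): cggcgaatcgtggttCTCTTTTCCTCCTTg
RPLP2 (chr11:809952-809981, plus strand): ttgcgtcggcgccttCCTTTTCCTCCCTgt
RPL22L1 (chr3:170870181-170870210, minus strand): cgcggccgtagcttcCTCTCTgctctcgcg
RPL10A (chr6:35468386-35468415, plus strand): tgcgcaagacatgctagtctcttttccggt
RPL26L1 (chr5:172958714-172958743, plus strand): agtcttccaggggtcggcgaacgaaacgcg
RPL7L1 (chr6:42879601-42879630, plus strand): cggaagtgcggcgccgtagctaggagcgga
RPS27L (chr15:63157463-63157492, minus strand): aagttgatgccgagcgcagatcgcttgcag

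RPS12, RPS19, RPS24 and RPLP2 open with runs of 10 to 14 pyrimidines. RPL22L1 has a run of 6. In RPL10A a pyrimidine run lies a few bases past the annotated start, and in the paralogs RPL26L1, RPL7L1 and RPS27L the window shows no such run at the start. Of the 84 members, 67 had an entry in the promoter table. A C at the annotated start with C or T in each of the first 5 bases was found in 43 of these 67 (64.2%), against 1104 of 27305 genes in the table (4.04%). A run of at least 8 C or T bases between 10 before and 25 after the start was found in 51 of 67 members (76.1%) and in 14.1% of all genes. The motif CCGGAAG, on either strand of the 300-base promoter, was in 34.3% of members and 10.7% of all genes, and AAGATGGCG in 8.96% and 1.85%. These are matches of letters at annotated starts and not measured start sites.

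The ribosomal protein mRNAs together held their share of the transcriptome until day 6 and fell as a share of all counts by day 12. From day 0 to day 6 the members took between 7.47% and 8.65% of all counts in every library. On day 0 the share was 8.55% in the first set and 7.53% in the second set. On day 8 it was 6.41% and 7.66%, and on day 12 it was 3.96% and 4.82%, below every earlier library. The mean share fell from 8.04% ± 0.719 (SD, n = 2) on day 0 to 4.39% ± 0.605 (SD, n = 2) on day 12.

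By then globin took a large part of the counts, so the share was also taken of counts that are neither globin nor ribosomal RNA. On this scale day 0 stood at 8.78% and 7.77%, day 8 at 8.83% and 8.59%, and day 12 at 5.84% and 7.65%. The day 8 libraries lay within or just above the range of day 0, and both day 12 libraries lay below it, the second-set library only slightly. Summed TPM, which counts molecules per length and includes globin in its total, was 196448 and 184335 on day 0, 134809 and 156074 on day 8 and 60340 and 66169 on day 12. In bulk RNA a change in RNA per cell and a change in the number of cells cannot be told apart.

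The ratio of summed TPM between the subunits also moved. Summed TPM of large-subunit members was 1.30 and 1.29 times that of small-subunit members on day 0, 1.17 and 1.23 times on day 8 and 1.11 and 1.15 times on day 12. The 2 libraries of day 12 lay below all 14 libraries of days 0 to 6, in which the ratio was between 1.25 and 1.30. Abundant members weigh most in these sums. RPS12 went from a mean of 6652 TPM on day 0 to 4728 on day 12 and RPS27 from 2978 to 2189. All small-subunit members together went from 82975 to 29700 TPM. In the gene tests described below, the median log2 fold change to day 12 was 0.34 over large- and 0.25 over small-subunit members. The part of single members in the ratio was not tested.

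**Figure D1:**
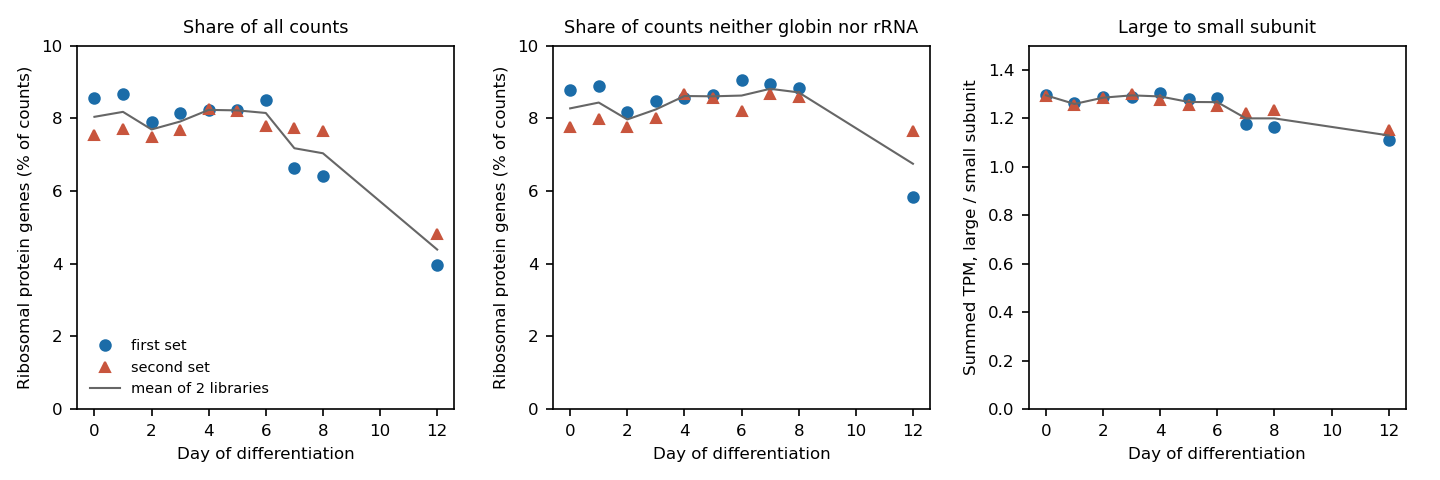
Share of ribosomal protein genes in all counts (left) and in counts that are neither globin nor ribosomal RNA (middle), in percent, and ratio of summed TPM of large- to small-subunit members (right), by day of differentiation; circles are libraries of the first set, triangles of the second set and lines the mean of 2 libraries. The share of all counts drops to 3.96% and 4.82% on day 12, while the share of counts that are neither globin nor ribosomal RNA stays between 7.76% and 9.05% until day 8.

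Levels of single members spanned several orders of magnitude. On day 0, 57 members had a mean over 1000 TPM, 22 lay between 100 and 1000 TPM and 5 lay under 100 TPM, with a median of 2055 TPM. On day 12 the corresponding numbers were 19, 52 and 13, with a median of 640.0 TPM. The members with the highest mean TPM over the 20 libraries were RPS12 (6926 TPM), RPS18 (6388 TPM), RPS2 (5484 TPM), RPL13A (5388 TPM) and RPLP0 (5106 TPM), of the small subunit but for the last pair. Their SDs over libraries were between 1111 and 1898 TPM, so the order among neighbours was within the spread over days. The lowest were RPL10L, RPL3L, RPL39L, RPS27L and RPL26L1, which all encode second versions of a ribosomal protein. RPL10L had no count in any library. RPL3L reached at most 11 counts and was at 0 in 12 libraries, so no fold is given for it. The per-length order also reflects the deposited transcript lengths: over 81 members, mean TPM went down with the TPM-weighted length (Spearman's rho = -0.57) and up with the coding length in GENCODE 44 (rho = 0.38). RPL14 and RPS27L, for example, were given 7081 and 6110 bases, far more than their coding sequence.

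Changes of each gene were tested with edgeR's quasi-likelihood test on counts after trimmed-mean (TMM) scaling, with 2 libraries a day and Benjamini-Hochberg adjustment over 16784 genes, of which 83 were members. On day 1, no member passed an adjusted p of 0.05 in either direction, and no member had an unadjusted p under 0.05. Background calls were as rare, at 0.262% of all genes higher and 0.131% lower. DESeq2 also called no member on day 1.

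By days 4 to 6, 1 member was higher and 2 were lower than on day 0, against 7.38% of all genes higher and 9.22% lower. The members that moved were all second versions of a ribosomal protein. RPS27L rose by a log2 fold change of 0.78 ± 0.18 (SE, adjusted p = 0.0099), and RPL22L1 fell by 0.86 ± 0.18 (SE, adjusted p = 0.0053). RPL39L, low at the outset, was the other one to fall. None of these calls held in every fit: without the second-set library of day 0, RPS27L (0.55) and RPL22L1 (-0.70) lost theirs, and without the first-set library of day 0 so did RPL39L. The median log2 fold change was 0.10 over members and -0.01 over all genes.

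By day 8, 13 members were higher and 6 lower than on day 0, against 17.7% of all genes higher and 19.4% lower. Both this comparison and that of day 12 use the same day 0 libraries. RPS27L, RPL10 and RPS12 led the rise, and RPL22L1, RPL23, RPL7L1 and RPS26 the fall. The median log2 fold change was 0.21 over members and 0.00 over all genes. On library totals 1 member was higher and 12 were lower, with medians of -0.17 and -0.36, and on log2(TPM + 1) with limma 1 was higher and 40 were lower, with medians of -0.39 and -0.34. Levels on day 8 lay above both day 0 libraries for 47 members and below both for 8, against 33.3% and 34.8% of all genes. These counts depended on which libraries entered the fit. Without the first-set libraries of days 7 and 8, which are rich in ribosomal RNA and whose part in the result was not tested further, 4 members were higher and 2 lower, and with only the days compared 2 were higher and 2 lower. With 1 library left out, the counts were 3 and 2 without the first-set library of day 8, 4 and 4 without the first-set and 3 and 5 without the second-set library of day 0, and 24 and 6 without either library of day 12. RPS27L and RPL22L1 were called in every setting tried, RPL39L in every setting that tested it, and RPL10 in every setting but scaling to library totals and TPM.

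RPS27L encodes a close relative of RPS27 and is a known target of p53. Its TMM-scaled level was 33.1 and 23.3 CPM on day 0 and 70.7 and 51.4 CPM on day 8, with no overlap. The log2 fold change was 1.11 ± 0.21 (SE, adjusted p = 0.001). RPL10, which joins the large subunit late in its assembly, went from 805 and 1019 CPM to 1703 and 1559 CPM, again with no overlap. Its log2 fold change was 0.84 ± 0.17 (SE, adjusted p = 0.002). RPS12 stood at 1227 and 1460 CPM on day 0 and at 2444 and 1816 CPM on day 8, a log2 fold change of 0.66 ± 0.21 (SE, adjusted p = 0.024). RPS27, a zinc-finger protein of the small subunit, had 0.70 ± 0.29 (SE, adjusted p = 0.075), which did not pass. RPS12 lost its call without the first-set library of day 8, at a log2 fold change of 0.43, without that of day 0, at 0.54, with only the days compared, at 0.68, on library totals, at 0.26, and on log2(TPM + 1), at 0.06.

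RPL22L1, the second version of RPL22, fell to 30.9 and 44.5 CPM on day 8 from 107 and 131 CPM on day 0, a log2 fold change of -1.66 ± 0.24 (SE, adjusted p = 1.59e-04). RPL23, a protein of the large subunit also known to bind MDM2, fell from 742 and 649 CPM to 358 and 470 CPM. Its log2 fold change was -0.75 ± 0.20 (SE, adjusted p = 0.010). RPL7L1, a relative of RPL7 found in assembling large subunits, went from 286 and 376 CPM to 174 and 231 CPM (log2 fold change -0.71, adjusted p = 0.011). RPS26, which lies near the exit of the mRNA channel, had a log2 fold change of -0.67 (adjusted p = 0.022). The first-set library was the lower of the 2 on day 8 in each of these 4 genes. Without it RPL23 (-0.57), RPL7L1 (-0.52) and RPS26 (-0.54) lost their calls. RPL23 (-0.65) and RPS26 (-0.54) also lost theirs without the first-set and RPL7L1 (-0.50) without the second-set library of day 0. RPL39L went from 30 and 24 counts to 0 in both libraries, at least 8.78-fold lower against the limit of 3 counts per library.

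By day 12, 36 members were higher and 11 lower than on day 0, against 29.7% of all genes higher and 38.5% lower. Apart from RPL39L, whose counts ran out, log2 fold changes went from -2.04 for RPL22L1 to 3.53 for RPS27L, with a median of 0.31 over members and -0.29 over all genes. Without the second-set library of day 12, 26 were higher and 17 lower, and the median over members was 0.03. All 47 calls went the same way in both sets of libraries. The calls were made from these same libraries, so this is not a separate check. Levels did not overlap with day 0 for 39 members on the higher side and 13 on the lower, against 37.1% and 46.4% of all genes.

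The split of higher and lower calls on day 12 depended on what the counts were measured against. With counts scaled to the library total, globin included, 2 members were higher and 63 lower, the median over members was -0.93 and that over all genes was -1.50. On log2(TPM + 1) with limma, 1 was higher and 78 were lower. DESeq2 with its own size factors gave 42 higher and 8 lower. Under every one of these settings and with any 1 library left out, RPS27L was higher, and RPL22L1, RPL26L1, RPL23, RPL10A, RPL6, RPL5 and RPL3 were lower, as was RPL39L wherever it could be tested. With the library-total and TPM settings set aside, 24 members kept a call of higher and 8 a call of lower throughout.

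**Figure D2:**
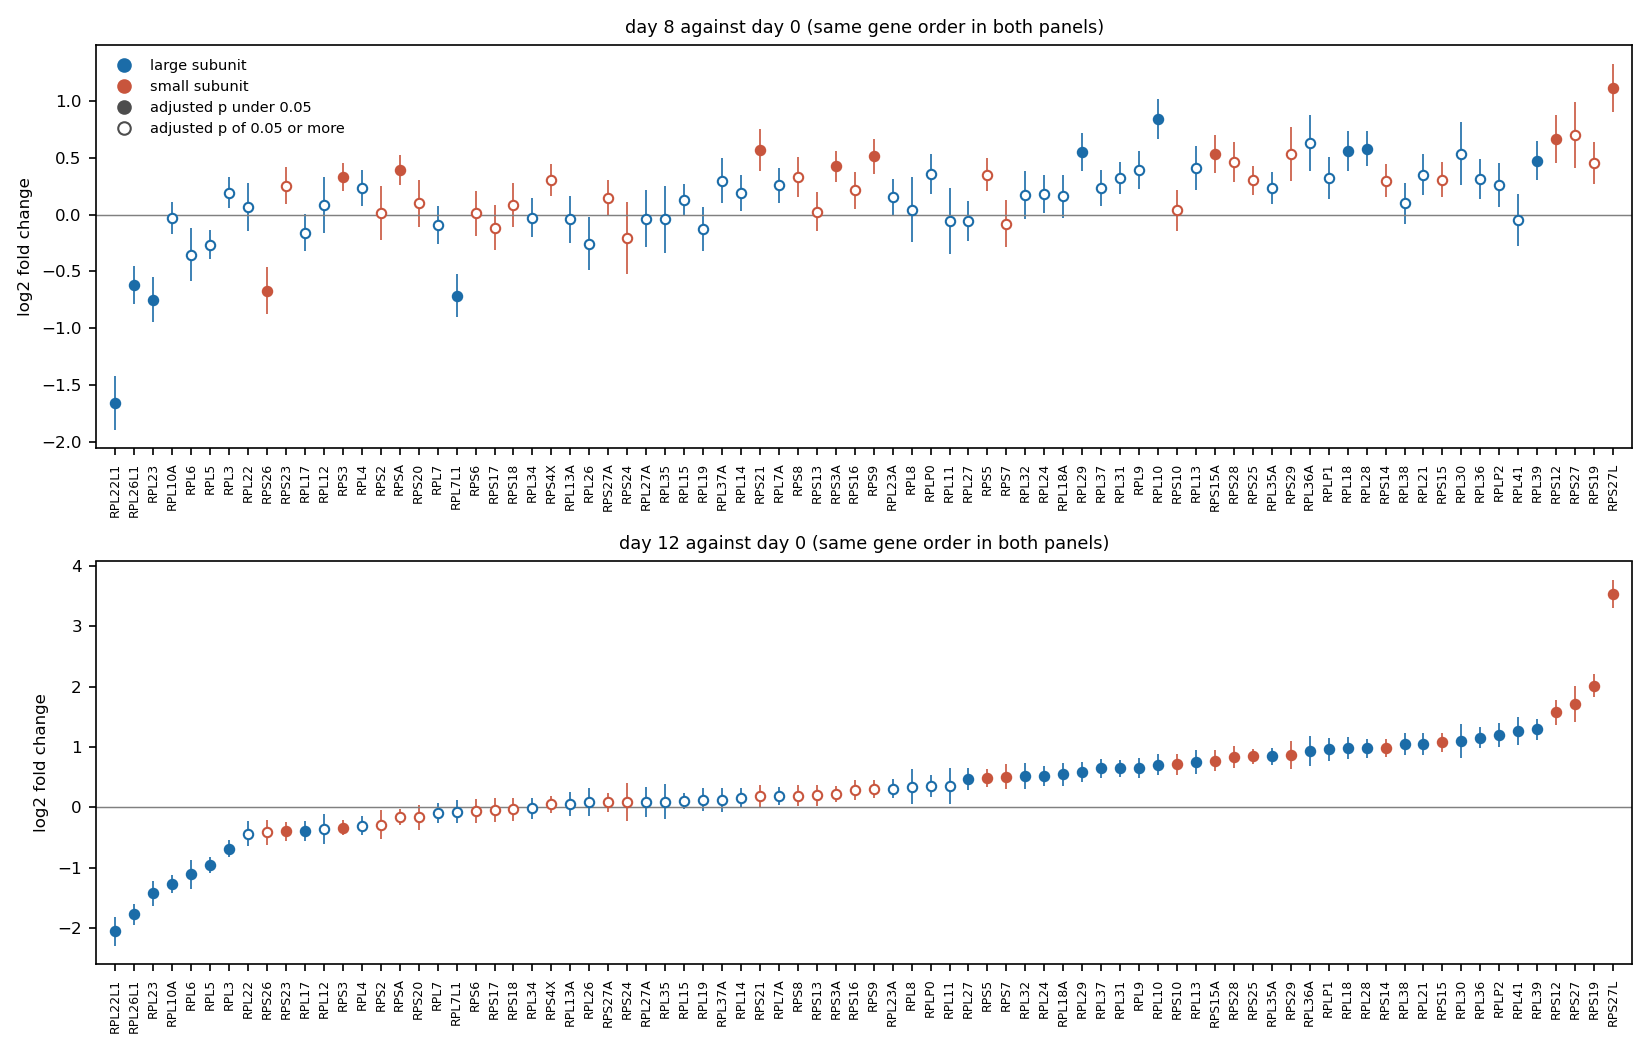
Log2 fold change of 80 ribosomal protein genes on day 8 (top) and day 12 (bottom) against day 0 after TMM scaling, with bars of 1 standard error; blue marks the large and red the small subunit, filled circles an adjusted p under 0.05. RPL22L1, RPL26L1, RPL23, RPL10A, RPL6, RPL5 and RPL3 lie at the low end on day 12 and RPS19 and RPS27L at the high end; under scaling to library totals 63 members are lower.

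The largest rises called on day 12 were those of single small-subunit genes. RPS27L reached 326 and 327 CPM, a log2 fold change of 3.53 ± 0.23 (SE, adjusted p = 1.79e-08). RPS19, the gene most often mutated in Diamond-Blackfan anemia and needed to process the RNA of the small subunit, went from 704 and 621 CPM on day 0 to 1020 and 793 CPM on day 8 and 2099 and 3247 CPM on day 12. Its log2 fold change on day 12 was 2.01 ± 0.19 (SE, adjusted p = 5.46e-07). On the TPM scale RPS19 was 817 ± 44.3 on day 0 and 785 ± 84.7 on day 12 (SD, n = 2), while the median of members went from 2055 to 640.0 TPM.

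RPS27 rose from 492 and 359 CPM to 1031 and 1762 CPM, with a log2 fold change of 1.71 ± 0.30 (SE, adjusted p = 1.75e-04). RPS12 rose to 3426 and 4556 CPM, with 1.57 ± 0.21 (SE, adjusted p = 1.79e-05). In these 3 genes, RPS19, RPS27 and RPS12, both day 12 libraries were above both day 0 libraries, and the second-set library was the higher. These directions hold against the scaled transcriptome: on log2(TPM + 1) the log2 difference was -0.48 for RPS12, -0.44 for RPS27 and -0.06 for RPS19. RPL3L had the next highest fitted change after RPS27L (adjusted p = 0.27), on counts too few to give a fold. Of the small subunit, 14 of 32 members were higher and 2 lower, against 29.7% and 38.5% of all genes. The median log2 fold change over small-subunit members was 0.25, beside 0.34 over those of the large subunit. The stalk protein genes RPLP1 and RPLP2 were among the risers of the large subunit, at 0.96 ± 0.19 (SE, adjusted p = 5.04e-04) and 1.20 ± 0.20 (SE, adjusted p = 1.02e-04), while their anchor RPLP0 had 0.35 ± 0.18 (SE, adjusted p = 0.092). RPLP2 stood at 535 and 481 CPM on day 0 and 875 and 1462 CPM on day 12.

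Of the 51 large-subunit members tested, 22 were higher and 9 lower on day 12, against 29.7% and 38.5% of all genes. RPL22L1 fell to 21.3 and 36.4 CPM (adjusted p = 4.43e-06). RPL26L1, the second version of RPL26, fell from 22.6 and 22.8 CPM to 5.65 and 7.70 CPM, a log2 fold change of -1.77 ± 0.17 (SE, adjusted p = 8.29e-07). RPL23 continued to fall, to 199 and 321 CPM, with -1.42 ± 0.20 (SE, adjusted p = 2.72e-05).

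RPL10A, a protein at the mobile L1 stalk where spent tRNA leaves, changed late. It had 801 and 713 CPM on day 0, 741 and 740 CPM on day 8 and 276 and 354 CPM on day 12. The log2 fold change was -0.03 ± 0.14 (SE, adjusted p = 0.89) on day 8 and -1.26 ± 0.14 (SE, adjusted p = 2.90e-06) on day 12. RPL5, which carries 5S ribosomal RNA into the ribosome together with RPL11, fell from 1116 and 1053 CPM to 501 and 618 CPM (log2 fold change -0.96 ± 0.13, SE, adjusted p = 1.55e-05). Its partner RPL11 had 857 and 612 CPM on day 0 and 731 and 1150 CPM on day 12, overlapping values with a log2 fold change of 0.36 ± 0.29 (SE, adjusted p = 0.29). The difference between RPL5 and RPL11 was not tested. RPL6 and RPL3, the latter close to the centre where peptide bonds form, fell by 1.10 and 0.68 on the log2 scale. RPL39L, at 30 and 24 counts on day 0 and 0 counts in every library from day 7 on, was at least 8.69-fold lower on day 12 against the limit of 3 counts per library.

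Days 8 and 12 were also compared directly. Against day 8, 22 members were higher and 10 lower on day 12, against 23.8% of all genes higher and 33.4% lower, and with only these days in the fit 10 were higher and 2 lower. RPL10A (-1.23 ± 0.14, SE), RPL26L1 (-1.15 ± 0.17, SE) and RPS27L (2.42 ± 0.22, SE) were called on the log2 scale in both fits. Without the second-set library of day 12, 13 were higher and 20 lower. Counts scaled to the library total gave 2 higher and 54 lower.

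A few members turned. Opposite calls from day 0 to day 8 and from day 8 to day 12 were found for 3 members: RPS3 and RPSA were higher and then lower, and RPL7L1 was lower and then higher. The day 8 call was lost in 18 of 20 fits with 1 library left out for RPS3, in 11 for RPSA and in 2 for RPL7L1, and with only the days compared for all 3. On library totals the log2 fold change of RPS3 to day 8 was -0.05. The change of RPL7L1 to day 12 lost its call without the first-set library of day 8, at 0.44, and without the second-set library of day 12, at 0.50, and was -0.23 on library totals. RPS3, a protein at the mRNA entry, went from 1417 and 1410 CPM to 1829 and 1729 CPM and then 1025 and 1216 CPM. RPSA, also known as the laminin receptor, followed with 1316 and 1119 CPM, then 1624 and 1575 CPM, then 960 and 1217 CPM. RPL7L1 returned to 287 and 342 CPM on day 12, within the range of day 0.

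The share of each member in the summed TPM of all members does not depend on globin, ribosomal RNA or scaling. On day 8 the share had changed by more than 1.5-fold in both sets for 7 members, up for RPS27L and down for RPL39L, RPL22L1, RPL26L1, RPL23, RPS26 and RPL7L1. On day 12 it was up by more than 1.5-fold in both sets for 8 members, among them RPLP2, RPS12, RPS27, RPS19 and RPS27L, and down for 14, leaving 61 within that range or divided between sets.

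RPS12 alone went from 3.00% and 4.02% of the pool on day 0 to 7.80% and 7.17% on day 12. RPS19 went from 0.432% and 0.426% to 1.20% and 1.28%, a ratio of 2.78 in the first set and 2.99 in the second. RPL10A fell to 0.317 and 0.275 of its day 0 share, RPL23 to 0.249 and 0.283 and RPL5 to 0.418 and 0.336. The 10 members with the highest shares held 30.4% of the pool on day 0, 31.3% on day 8 and 36.3% on day 12.

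**Figure D3:**
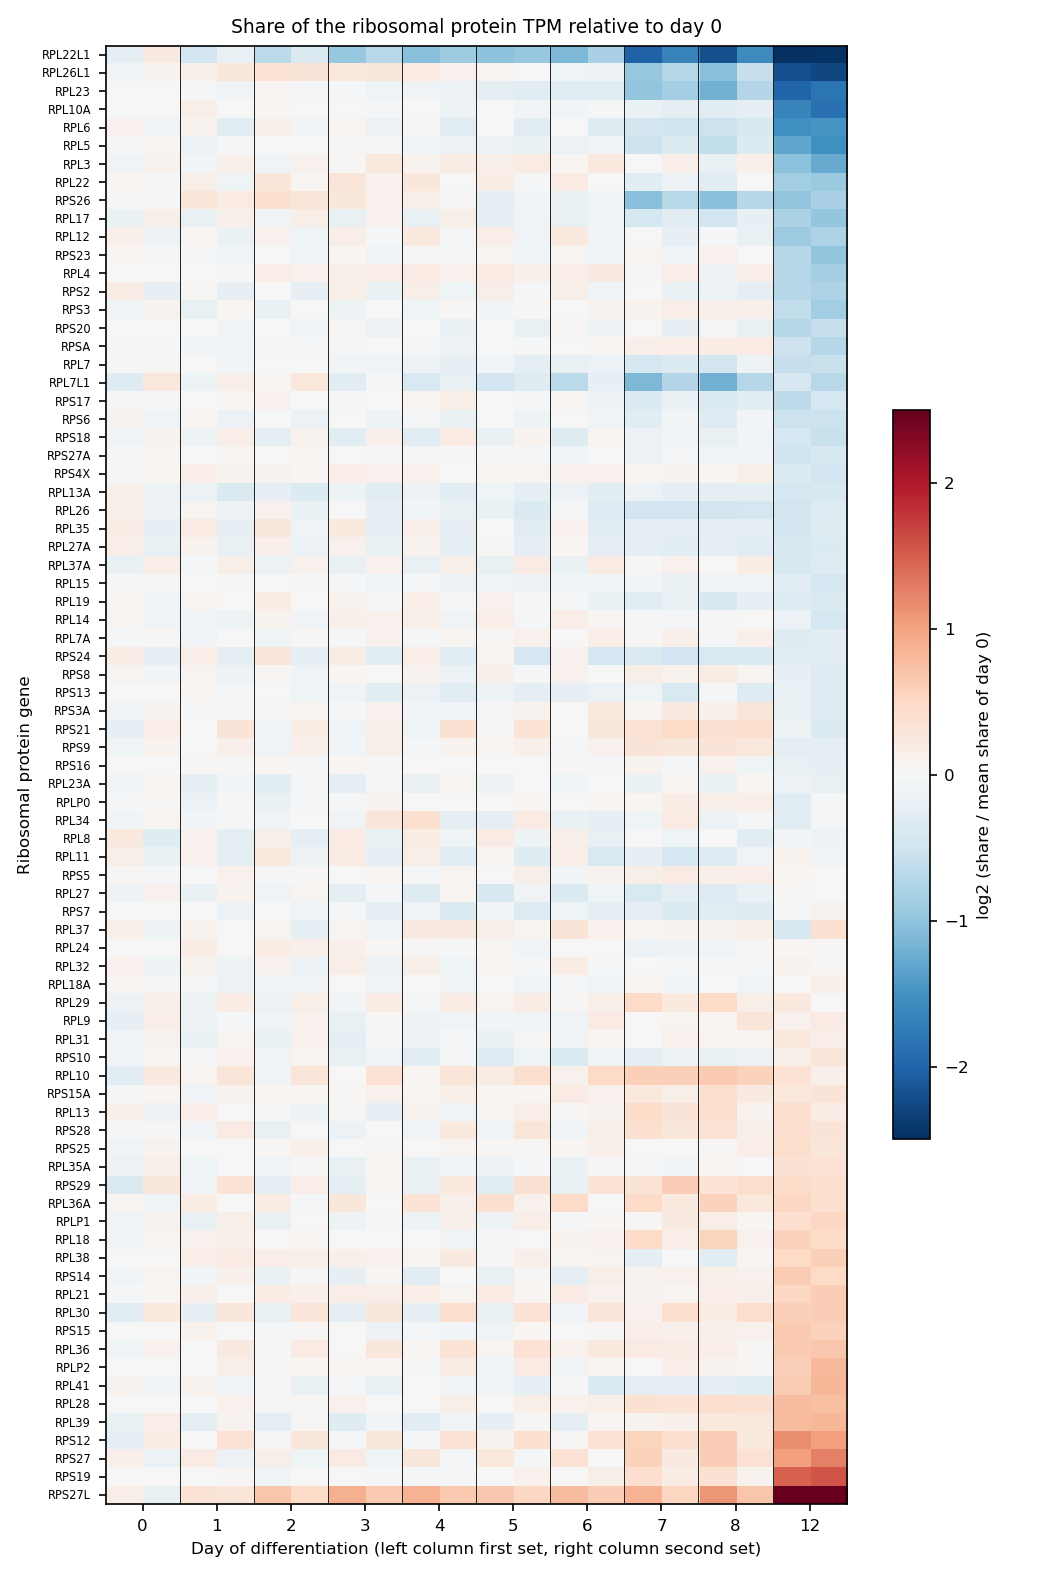
Share of each of 80 ribosomal protein genes in the summed TPM of all members, as log2 of its ratio to the mean share on day 0; each day has a column for the first set (left) and the second set (right), red is above and blue below day 0, and colours end at 2.5. Both day 12 columns are blue for RPL22L1 and RPL10A, whose share fell to 0.317 and 0.275 of day 0 in the latter, and red for RPS19, at 2.78 and 2.99 times day 0.

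The calls were also counted by coding length, taken from the Ensembl canonical transcript in GENCODE 44. The split into 4 groups of nearly equal size was made after values had been seen and was not tested. In the group of the shortest (75 to 369 bases), 14 of 21 members were higher and 1 lower on day 12 than on day 0, with a median log2 fold change of 0.87. In the second group (375 to 453 bases), 10 of 20 were higher and 3 lower, with a median of 0.37. In the third (456 to 612 bases), 10 of 20 were higher and 1 lower, with a median of 0.42. In that of the longest (624 to 1281 bases), 2 of 20 were higher and 5 lower, with a median of -0.07. Over all genes 29.7% were higher and 38.5% lower. Over 81 members the log2 fold change to day 12 had a Spearman's rho of -0.45 with the coding length, and that to day 8 a rho of -0.17. All points come from the same libraries and are not independent. Members with a C and further pyrimidines at the annotated start had a median of 0.31, with 20 higher and 3 lower of 43. The others with an entry had 0.13, with 10 higher and 5 lower of 23. Both stand beside the same 29.7% and 38.5% of all genes.

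Several ribosomal proteins have a second gene, often restricted to some tissues, and the products of some can take the place of the first in the ribosome. The share of the second gene in the TPM of the pair is free of library scaling, but it does not show what ribosomes hold. RPL22L1 made up 19.7% and 26.5% of the RPL22 pair on day 0, 7.45% and 8.97% on day 8 and 7.75% and 9.42% on day 12, with no overlap between day 0 and the later days. RPL22 itself had a log2 fold change of -0.43 ± 0.21 (SE, adjusted p = 0.083) on day 12, which did not pass. RPL26L1 made up 1.76% and 2.39% of its pair on day 0, 1.36% and 1.85% on day 8 and 0.624% and 0.538% on day 12. RPL26 stood at 911 and 678 CPM on day 0 and at 651 and 1036 CPM on day 12.

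RPS27L moved the other way. Its share with RPS27 was 0.388% and 0.374% on day 0, 0.530% and 0.482% on day 8 and 1.89% and 1.13% on day 12. In counts, which are not divided by the 6110 bases deposited for RPS27L, it was 6.20% on day 0 and 19.8% on day 12. RPL7L1 was 3.83% and 5.37% of its pair on day 0, 2.84% and 3.13% on day 8 and 5.11% and 4.26% on day 12. RPL36AL, a near copy of RPL36A outside the naming rule, made up 22.56% and 24.99% of its pair on day 0 and 33.6% and 33.9% on day 12. Reads that fit both copies could be assigned to either, which limits the shares of close pairs. Processed pseudogenes named after members took a further 2.49% to 3.00% of the members' counts.

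Transcripts of 1 member gene can differ in the exons they hold. Of the members, 35 had at least 2 coding transcripts above 5% of the gene's TPM in some library, and in 15 of them a transcript moved by more than 10 percentage points from day 0 to day 12 without overlap. How shared reads were divided among transcripts is an estimate by the authors' program. RPS24, a gene of the small subunit mutated in some families with Diamond-Blackfan anemia, is described first. Transcript NM_033022 (chr10:78033863-78040697, hg38, plus strand, 6 exons) holds a short exon that NM_001026 (chr10:78033760-78040716, 5 exons) leaves out. That exon of 22 bases lies at chr10:78040204-78040225 and is shown in capitals with 4 intron bases on either side.
RPS24 exon (chr10:78040200-78040229, plus strand): tcagTGAGCTGGAGATTGGATCACAGgtat

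The share of RPS24 TPM on the transcript with this exon was 40.8% and 41.8% on day 0, 54.5% and 53.4% on day 4, 55.0% and 58.9% on day 8 and 82.7% and 80.2% on day 12. It was 41.3% ± 0.741 on day 0 and 81.4% ± 1.74 on day 12 (SD, n = 2), and the mean of each day from day 4 on lay above those of days 0 to 3. NM_001026 went from 58.3% ± 0.806 to 17.6% ± 1.65. From counts in place of TPM the shares were 37.1% and 78.0%. The transcripts also differ in their annotated ends, which lie further out in NM_001026. The level of the gene itself had a log2 fold change of 0.10 ± 0.32 (SE, adjusted p = 0.80).

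RPL22L1 was left on day 12 mostly with a transcript annotated as non-coding. NR_135259 made up 19.3% and 15.2% of its TPM on day 0, 22.3% and 9.47% on day 8 and 75.8% and 66.0% on day 12. It is 67 bases longer than the coding NM_001099645 (1902 bases, chr3:170864875-170870195, minus strand). GENCODE 44 holds an exon that can begin at either of 2 acceptors 67 bases apart, with the added bases at chr3:170868135-170868201, and the form with the upstream acceptor is annotated there as a target of nonsense-mediated decay. The match of NR_135259 to this form rests on its length. Both acceptors are shown on the minus strand with the AG before the exon in capitals.
RPL22L1, acceptor of the coding transcript (chr3:170868120-170868149): tctgttttaaaatAGgagcaatttctacgg
RPL22L1, upstream acceptor (chr3:170868187-170868216): aagctctattcctAGggtaccttccctagt

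With coding transcripts alone, RPL22L1 made up 2.71% of its pair on day 12 in place of 8.59%. The gene had 659 and 1025 counts on day 12 against 7190 and 9989 on day 0, so that these shares rest on fewer reads. NR_135259 itself had fewer counts on day 12, 503 and 684 against 1425 and 1563 on day 0. NM_001099645 had 126 and 310 against 4516 and 7026. Other genes also changed their transcripts. RPS14 gathered on NM_005617, from 69.8% ± 6.38 on day 0 to 98.6% ± 0.338 on day 8 and 98.6% ± 0.0422 on day 12. RPL6 gathered on NM_000970, from 52.4% ± 5.15 to 86.3% ± 7.65 on day 8 and 82.6% ± 6.99 on day 12. NM_001035267 of RPL41, which encodes the shortest ribosomal protein, went from 5.601% ± 1.13 to 21.1% ± 1.56 (SD, n = 2). In RPL34 the libraries of a day disagreed, with 62.4% ± 29.4 on NM_001319236 on day 12.

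**Figure D4:**
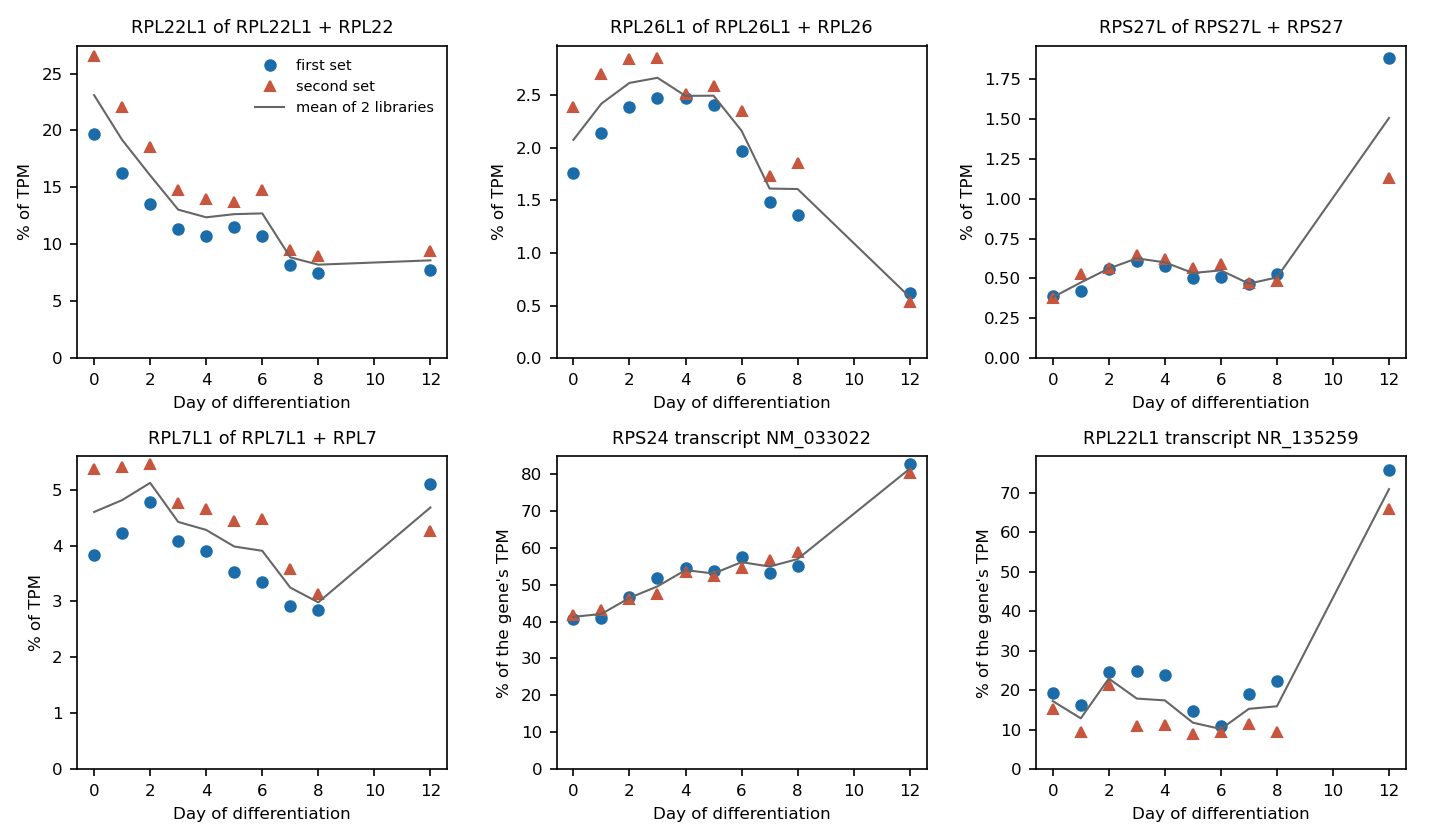
Share of the second gene in the TPM of a pair (RPL22L1, RPL26L1, RPS27L and RPL7L1) and share of a gene's TPM on 1 transcript (RPS24 NM_033022 and RPL22L1 NR_135259), in percent, by day; circles are the first set, triangles the second set and lines the mean of 2 libraries, and the vertical axes differ. RPL22L1 drops from 19.7% and 26.5% on day 0 while the RPS24 transcript with the short exon climbs to 82.7% and 80.2% on day 12.

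Of 19 members found mutated in Diamond-Blackfan anemia, 2 were higher and 1 lower on day 8, and 11 were higher and 1 lower on day 12, beside 17.7% and 19.4% of all genes on day 8 and 29.7% and 38.5% on day 12. Their median log2 fold change on day 12 was 0.51, beside 0.31 over all members tested. RPS19 was at the top of them and RPL5 at the bottom, with RPL11 in between.

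The genes around the ribosome were given by lists. Ribosomal proteins outside the rule include FAU, which is made as a fusion with a ubiquitin-like protein, RPL36AL and RACK1. On day 12 FAU (2.04 ± 0.18, SE) and RPL36AL (1.65 ± 0.16, SE) were higher on the log2 scale and RACK1 (-0.52 ± 0.15, SE) was lower, by edgeR with adjusted p-values of at most 0.0073. Of 16 elongation factor and other TOP mRNAs, 6 were higher and 4 lower on day 12, with a median of 0.02. Over all genes 29.7% were higher and 38.5% lower, with a median of -0.29. TPT1 (2.47), a growth-related TOP mRNA, was the highest, and the nucleolar chaperone NPM1 (-3.33) the lowest. These changes are after TMM scaling. Mean TPM on days 0 and 12 was 1091 and 1068 for FAU, 305 and 229 for RPL36AL and 747 and 978 for TPT1.

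Genes of the ribosome assembly list, which also holds MYC and genes of ribosomal RNA transcription, were mostly lower. Of 39, 30 were lower and 1 higher on day 8, and 34 were lower and 2 higher on day 12, with medians of -0.99 and -2.08. Over all genes 19.4% were lower and 17.7% higher on day 8, and 38.5% and 29.7% on day 12. The medians over all genes were 0.00 and -0.29. POLR1B and POLR1A, the largest subunits of RNA polymerase I, which makes ribosomal RNA, fell by 4.15 and 3.79 on the log2 scale to day 12. FBL, which methylates ribosomal RNA, fell by 2.24, and NCL, the nucleolar protein nucleolin, by 2.16. SBDS, which frees new large subunits of EIF6, rose by 1.16, and UBTF, a factor of ribosomal RNA transcription, by 0.99. These rises hold after TMM scaling. In mean TPM, SBDS went from 70.4 on day 0 to 38.5 on day 12 and UBTF from 104.8 to 50.8. The summed TPM of the assembly list was 7427 to 7888 on day 0 and 627 to 681 on day 12, while that of the members went from 184335 to 196448 down to 60340 to 66169.

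Of 6 factors of ribosome recycling and rescue, 4 were lower and 1 higher on day 12, against 38.5% and 29.7% of all genes. ABCE1, which splits ribosomes after termination, fell by 2.45 on the log2 scale. PELO and HBS1L, which act together on stalled ribosomes, fell by 1.49 and 1.02. ZNF598, which senses collided ribosomes, rose by 1.86 after TMM scaling, while its mean TPM went from 50.6 on day 0 to 43.7 on day 12.

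**Figure D5:**
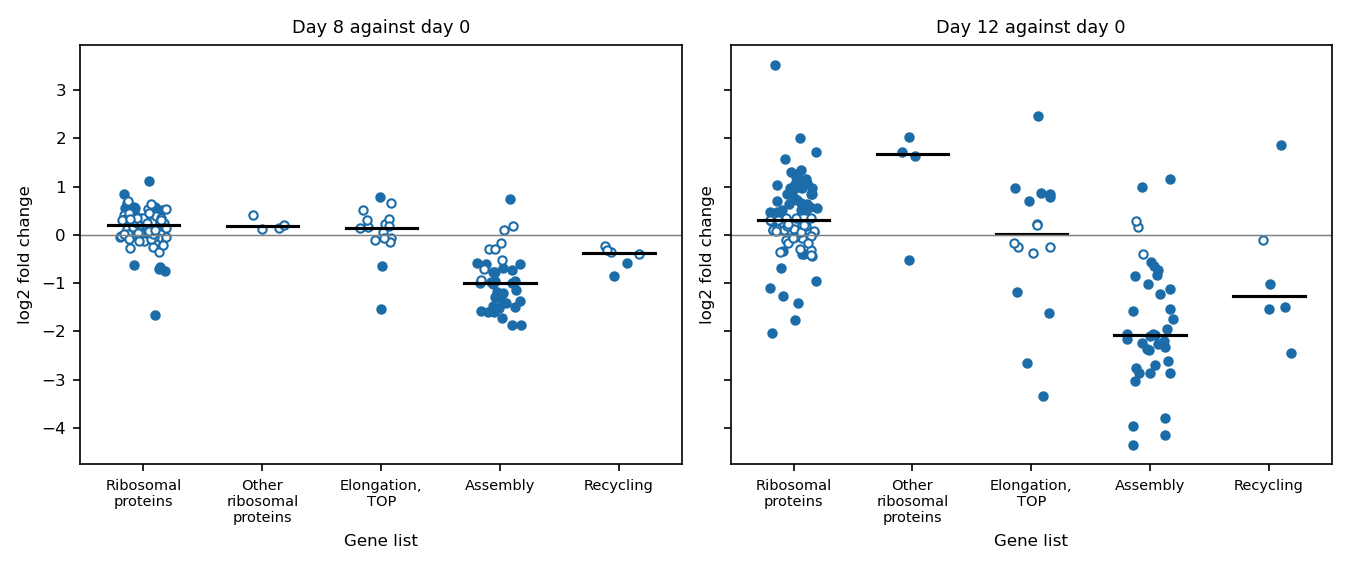
Log2 fold change after TMM scaling of the ribosomal protein genes, ribosomal proteins outside the naming rule, elongation and other TOP mRNAs, assembly factors and recycling factors, on day 8 (left) and day 12 (right) against day 0; each circle is a gene, filled where the adjusted p was under 0.05, and black lines are medians. The assembly list lies lowest on day 8, at a median of -0.99, and on day 12, at -2.08, beside 0.21 and 0.31 for all ribosomal protein genes tested.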

How the data were processed

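RNA was measured in 20 libraries of HUDEP-2 cells, 2 on each of 10 days. The submitters' processing notes name Trimmomatic 0.38, HISAT2 2.1.0, StringTie 2.1.3b and hg38. The authors deposited read counts per RefSeq transcript without normalization. The authors also deposited TPM, scaled for length and library. The deposited FPKM were not used. Scripts read 40 per-library columns and left 23 unused, among them a further set of day 0 columns. How shared reads were split is not given in the sources used here.

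Transcripts were summed by gene symbol. Counts were tested with edgeR 4.0.16 in R 4.3.3 (filterByExpr, TMM, glmQLFit and glmQLFTest) in 1 fit of all libraries with a coefficient per day, at an adjusted p of 0.05. SE was computed as |log2 fold change| over the root of F. Totals put the limit of 3 counts at 0.0426 to 0.0575 CPM, which covers counting error only. Of the genes of a day, 65.3% to 78.0% differed between its libraries beyond sampling noise, so none was a duplicate. Alternatives were DESeq2 1.42.0, limma 3.58.1 on TPM (pseudocounts 1 and 0.1), other scalings, filters and sets of libraries. The members, lists and naming rule were chosen with earlier results of these data known. Genes named with values are the 5 largest and 5 smallest changes on days 8 and 12, the 5 highest and lowest levels, paralog pairs, stalk proteins, examples of anemia genes and genes with opposite calls. Further genes (RPL6, RPL3, RPL41 and RPS14, and those of other lists) were picked after their values were seen. The fits were tested on simulated data. Some items are not reported here.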

Additional observations from a re-analysis of the deposited data

How the results depend on the processing

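Counts of members called are given as higher and lower. On library totals they were 1 and 12 on day 8, 2 and 63 on day 12, and 2 and 54 from day 8 to day 12. With limma on log2(TPM + 1) they were 1 and 40, 1 and 78, and 1 and 76, and with a pseudocount of 0.1 they were 1 and 39, 1 and 78, and 1 and 78; these scales include globin in the total. Fitting only the days compared gave 2 and 2 on day 8 and 10 and 2 from day 8 to day 12, where edgeR's exact test gave 3 lower. On day 8, 8 members were higher with no filter beyond 1 count and 20 with the library set as a block. In fits added after seeing the data, 26 were higher without day 12. Without the first-set libraries of days 7 and 8, the median log2 fold change over members was 0.21. With the set as a block 3 were higher on days 4 to 6. Requiring 10 counts in every library, which drops RPL39L, left 1 lower on days 4 to 6 and 7 on day 12, and coding transcripts alone left 1 on days 4 to 6. The cause of the remaining differences was not tested. No paired analysis was possible because the columns carry a day and no replicate number. The block that was fitted is the library set, first or second, with all first-set tables merged into 1 level. It matches libraries across days by set, and no label ties the sets to the replicate numbers.

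Leaving out each library in turn gave 0 calls on day 1, 0 to 1 higher and 1 to 2 lower on days 4 to 6, 3 to 24 and 2 to 6 on day 8, 26 to 43 and 8 to 17 on day 12, and 13 to 31 and 7 to 20 from day 8 to day 12. On day 8 the counts were 3 and 2 without the first-set library of that day, 4 and 4 without the first and 3 and 5 without the second library of day 0, and 24 and 6 without either library of day 12.

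The ratio of the summed share of counts to day 0 was 0.7975 to 0.953 on day 8 and 0.4926 to 0.5991 on day 12 with a library left out. Of counts that are neither globin nor ribosomal RNA it turned to 1.053 on day 8 and was 0.8158 on day 12, and in summed TPM it was 0.3322 on day 12. With limma on TPM the day 12 log2 fold changes turned to -0.4831 and -0.4832 (pseudocounts 1 and 0.1) for RPS12, -0.4428 and -0.4429 for RPS27, and -0.06231 and -0.06238 for RPS19.

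From counts in place of TPM, shares of the pair on days 0 and 12 were 2.836% and 0.7991% for RPL26L1, 14.54% and 14.94% for RPL7L1, 6.201% and 19.83% for RPS27L and 21.7% and 31.16% for RPL36AL, and that of RPS24 NM_033022 was 37.13% and 78.02%. Coding transcripts alone put RPL22L1 at 2.705% on day 12. With 1 library of the day left out, shares on days 0 and 12 were 19.7% to 26.51% and 7.754% to 9.417% for RPL22L1, 1.763% to 2.389% and 0.5375% to 0.6237% for RPL26L1, 22.56% to 24.99% and 33.62% to 33.88% for RPL36AL, 3.83% to 5.372% and 4.256% to 5.106% for RPL7L1, 0.3744% to 0.3878% and 1.127% to 1.885% for RPS27L, 15.19% to 19.27% and 65.98% to 75.8% for RPL22L1 NR_135259, and 40.75% to 41.8% and 80.19% to 82.65% for RPS24 NM_033022.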
